A study of Mus musculus with 2 samples.

Results

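Costimulatory receptors of the tumour necrosis factor (TNF) family and their ligands were described here as 5 pairs: 4-1BB (Tnfrsf9) with Tnfsf9, OX40 (Tnfrsf4) with Tnfsf4, GITR (Tnfrsf18) with Tnfsf18, Cd27 with Cd70, and Cd40 with Cd40lg. These 10 genes were taken by symbol from the 32285 genes of the count tables, and they were chosen with earlier results of these data known. The cells were living CD45+ cells, that is leukocytes, sorted from subcutaneous tumours of B16-F10, a transplantable mouse melanoma line, on day 14 after injection. One library came from tumours of DGAT1-knockout (KO) B16-F10 cells and 1 from tumours of WT B16-F10 cells, with 3 tumours behind each group. DGAT1 is the enzyme that makes triglyceride from diacylglycerol, and it was knocked out in the injected tumour cells, so the leukocytes came from the hosts. The sources used here do not give the strain, sex and age of the hosts, the number of knockout clones or any treatment of the mice. The study asked how the immune cells of the tumour differ when the tumour cells lack DGAT1. The tumours of a group were not told apart within its library, so each group is 1 sample, and no difference below has a replicate check or a test.

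Members of this family bind as trimeric ligands to receptors whose tails recruit TRAF adaptor proteins and turn on NF-kB, which raises survival and effector genes. 4-1BB, OX40 and GITR are induced on T cells by antigen, are prominent on regulatory T cells within tumours, and are targets of agonist antibodies in cancer. CD27 is present on resting T cells already, whereas CD40 sits on antigen-presenting cells and receives help from CD40 ligand on CD4 T cells. The ligands of the T cell receptors are displayed mainly by activated antigen-presenting cells, and some also by activated T cells.

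The genes lie in 3 neighbouring pairs and 4 single loci of the mouse genome (mm10, GENCODE M21 gene models, all protein-coding). On chromosome 4 are Tnfrsf9 (ENSMUSG00000028965, chr4:150914562-150946102, plus strand), Tnfrsf4 (ENSMUSG00000029075, chr4:156013843-156016612, plus strand) and Tnfrsf18 (ENSMUSG00000041954, chr4:156026164-156028895, plus strand). Tnfrsf4 and Tnfrsf18 are separated by 9.55 kb. The ligand genes Tnfsf4 (ENSMUSG00000026700, chr1:161395409-161418410, plus strand) and Tnfsf18 (ENSMUSG00000066755, chr1:161494655-161505290, plus strand) are 76.2 kb apart. The ligand genes Tnfsf9 (ENSMUSG00000035678, chr17:57105325-57107757, plus strand) and Cd70 (ENSMUSG00000019489, chr17:57145997-57149777, minus strand) are 38.2 kb apart. Cd27 (ENSMUSG00000030336) is at chr6:125232622-125237010 on the minus strand, Cd40 (ENSMUSG00000017652) at chr2:165055627-165072948 on the plus strand, and Cd40lg (ENSMUSG00000031132) at chrX:57212143-57224042 on the plus strand.

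The 250 bases before the start sites of 4 receptor genes are shown because Tnfrsf9, Tnfrsf4 and Tnfrsf18 were lower together in knockout CD8 T-like cells and Cd27 was less so. They are RefSeq sequences of build GRCm38.p6, which is mm10, given 5′ to 3′ on the strand of the gene. For Tnfrsf9 the window of the first start site is chr4:150919905-150920154 and that of the second is chr4:150927749-150927998. The windows of Tnfrsf4 and Tnfrsf18 are chr4:156013445-156013694 and chr4:156026072-156026321, all on the plus strand, and that of Cd27 is chr6:125237028-125237277 on the minus strand. The start sites are those of RefSeq and differ from the GENCODE gene starts above. Both Tnfrsf9 windows lie inside the GENCODE gene, and the Tnfrsf18 window spans its GENCODE start. Capitals mark the NFAT core GGAAA or its reverse complement TTTCC, the AP-1 motif TGANTCA and the NF-kB consensus, motifs of 3 factors that antigen receptor signalling turns on.
Tnfrsf9, first start site: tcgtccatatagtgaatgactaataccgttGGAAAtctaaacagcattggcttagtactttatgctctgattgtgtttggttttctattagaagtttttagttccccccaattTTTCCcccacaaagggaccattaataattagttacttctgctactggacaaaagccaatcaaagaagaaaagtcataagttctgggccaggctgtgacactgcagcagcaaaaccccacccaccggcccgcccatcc
Tnfrsf9, second start site: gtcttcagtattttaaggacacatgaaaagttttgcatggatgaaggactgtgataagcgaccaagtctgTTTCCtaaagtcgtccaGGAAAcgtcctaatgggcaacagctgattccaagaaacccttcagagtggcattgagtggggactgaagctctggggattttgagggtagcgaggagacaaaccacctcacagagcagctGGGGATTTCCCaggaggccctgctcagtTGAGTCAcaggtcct
Tnfrsf4: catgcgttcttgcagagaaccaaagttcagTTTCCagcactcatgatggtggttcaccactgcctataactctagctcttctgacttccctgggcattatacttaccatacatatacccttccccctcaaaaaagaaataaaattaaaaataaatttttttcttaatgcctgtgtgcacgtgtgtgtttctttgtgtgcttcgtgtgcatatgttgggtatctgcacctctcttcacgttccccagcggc
Tnfrsf18: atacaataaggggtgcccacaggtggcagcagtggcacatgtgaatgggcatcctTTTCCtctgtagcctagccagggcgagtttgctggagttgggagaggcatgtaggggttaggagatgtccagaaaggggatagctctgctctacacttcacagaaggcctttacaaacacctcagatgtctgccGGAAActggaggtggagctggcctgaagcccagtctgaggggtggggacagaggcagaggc
Cd27: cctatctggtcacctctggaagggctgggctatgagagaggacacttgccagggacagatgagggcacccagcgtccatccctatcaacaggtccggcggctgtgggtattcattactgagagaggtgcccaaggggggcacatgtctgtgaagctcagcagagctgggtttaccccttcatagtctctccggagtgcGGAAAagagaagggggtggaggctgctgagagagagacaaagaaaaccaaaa
The search covered both strands. The window of the second Tnfrsf9 start held 1 AP-1 match, TGAGTCA, which begins 15 bases before the start site, and 3 NFAT cores. It also held 2 overlapping matches to the NF-kB consensus, GGGGATTTCC from 43 and GGGATTTCCC from 42 bases before the start site, and 1 of the NFAT cores lies inside both. The window of the first Tnfrsf9 start held 2 NFAT cores, that of Tnfrsf4 held 1, that of Tnfrsf18 held 2 and that of Cd27 held 1. The other 4 windows held neither the AP-1 nor the NF-kB motif. Over 32851 windows of the same length, 6.75% held the AP-1 motif, 55.6% the NFAT core and 7.25% the NF-kB consensus, so the NFAT core alone is common. A match of letters is a description and not a binding site. Windows were matched for 5 of the 10 genes.

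The knockout library held 202946827 UMIs (unique molecular identifiers, each counting 1 captured RNA molecule) and the WT library 235652476. After cell calling and filters, 10979 and 9087 cells were kept, with medians of 10770 and 14059 UMIs, so WT cells were deeper. The 2 libraries shared 24 cell barcodes. The unit of level is CPM: a gene's UMIs, added up over a class of cells, per 1000000 UMIs in the class. In melanoma-like cells Dgat1 stood at 18.6 CPM (95% interval 15.7 to 22.0) in the knockout and 28.8 CPM (26.9 to 30.8) in the WT library. The sources used here do not give the targeted part of the gene, and reads outside it check nothing. Each cell was put into a class by a gate on marker genes, none of which is one of the 10 genes, and each class is called by its markers with "-like". CD8 T-like cells numbered 2370 and 1808 (knockout and WT, the order used throughout), macrophage-like cells 1499 and 2732, mature dendritic cell (DC)-like cells 304 and 179, and NK-like cells 596 and 278. Every interval is an exact 95% interval that covers counting error only, and not the spread between tumours. Ratios are the knockout level over the WT level, and a gene counts as past the fold when one or both libraries hold 50 or more of its UMIs and the levels differ by 1.5-fold or more, up or down.

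In CD8 T-like cells, the RNA of 4-1BB, OX40 and GITR was lower in the knockout library, together with that of the OX40 ligand. Of the 10 genes, 8 reached 50 UMIs there, 4 were past the fold and lower, and 0 were past it and higher. Over all 12346 genes measured in that class, 9.14% were past the fold either way and 6.2% were lower. The median log2 ratio of the 8 genes was -0.48, and that of all genes measured was 0.06. Fewer cells with a given RNA and less RNA per cell cannot be told apart from these sums.
Tnfrsf9, whose product drives survival and expansion of CD8 T cells, stood at 283 CPM with 15872 knockout UMIs (279 to 288) and 519 CPM with 25564 WT UMIs (513 to 525), a ratio of 0.546 (0.535 to 0.557). Tnfrsf4, which prolongs T cell survival, was at 117 CPM (114 to 120) and 192 CPM (189 to 196), a ratio of 0.607 (0.588 to 0.627). Tnfrsf18, which lowers the threshold of T cell stimulation, was at 114 CPM (111 to 117) and 172 CPM (168 to 176), a ratio of 0.664 (0.642 to 0.686). The WT library was the higher one for all 3 receptors. Tnfsf4, the OX40 ligand, was at 7.19 CPM from 403 UMIs and 12.4 CPM from 612 UMIs, a ratio of 0.579 (0.509 to 0.657), and 10 cells held 21.1% and 24.2% of these UMIs. Without those 10 cells in each library its log2 ratio was -0.74, and that of Tnfrsf9 was -0.91.
Cd27, the receptor of naive and memory T cells, was at 123 CPM (120 to 126) and 144 CPM (140 to 147), a ratio of 0.855 (0.827 to 0.884), which is not past the fold. Its ligand Cd70 was at 12.1 and 15.5 CPM (ratio 0.779, 0.701 to 0.865), and Tnfsf9, the ligand of 4-1BB, at 9.10 and 10.2 CPM (ratio 0.895, 0.789 to 1.01). The last interval includes 1. The receptor Cd40 was at 1.41 and 1.36 CPM, a level that free RNA alone would give (estimated at 173% and 151% of its UMIs). Cd40lg had 15 and 13 UMIs and Tnfsf18, the GITR ligand, 1 and 2 UMIs, so no ratio is drawn for these.

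Shares of cells gave the same order for the 3 receptors when each cell was thinned to 3000 UMIs each, which left out 25 knockout and 33 WT CD8 T-like cells. A Tnfrsf9 UMI was found in 37.9% of knockout cells (35.9 to 39.9) and 59.4% of WT cells (57.1 to 61.7), and at least 3 UMIs in 7.33% and 20.3%. Without thinning the shares were 72.3% and 85.0%, at median depths of 18470 and 22182 UMIs. In B-like cells, taken as a class that should lack 4-1BB, the thinned shares were 3.57% (0.435 to 12.3) and 1.37% (0.166 to 4.86), at median depths of 5487.5 and 6037 UMIs, and in macrophage-like cells they were 3.62% and 2.73%, at 17205 and 22604 UMIs. Tnfrsf4 was found in 15.7% and 27.0% of thinned CD8 T-like cells against 1.01% and 0.997% of macrophage-like cells. Tnfrsf18 was found in 21.2% and 31.9% against 0.938% and 0.701%. Cd27 differed least, with 32.1% (30.2 to 34.0) and 34.3% (32.0 to 36.5), and these intervals overlap.
In both libraries, OX40 and GITR were found more often in cells with 4-1BB than in cells without it. Among thinned knockout CD8 T-like cells, Tnfrsf4 was found in 26.6% of the 888 cells with Tnfrsf9 and in 8.99% of the 1457 without, and in the WT library in 34.1% of 1055 and 16.5% of 720. Tnfrsf18 was found in 30.0% of knockout cells with Tnfrsf9 and 15.9% without, and in 36.6% and 25.1% of WT cells. Cd27 did not follow this pattern, with 31.0% and 32.8% in knockout cells and 33.8% and 34.9% in WT cells. Tnfrsf9 was found more often in the few cells with a UMI of Cd70, a ligand of activated T cells, than in cells without it. Of 50 such knockout cells 80.0% had Tnfrsf9 (66.3 to 90.0), against 36.9% of the cells without Cd70. Of 53 such WT cells 79.2% had it (65.9 to 89.2), against 58.8%. Cells share their library here, so these shares describe the 2 libraries only.

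The libraries also differed in their mix of CD8 T-like states, and the receptors were read within each state. States were set from marker genes: Pdcd1 (PD-1) negative cells, Tcf7 or Slamf6 positive cells (markers of stem-like cells), Havcr2 or Entpd1 positive cells (markers of terminal exhaustion), cells high in the granzyme genes Gzmc to Gzmf, and other Pdcd1 positive cells. Cells high in Gzmc to Gzmf made up 7.30% of knockout and 12.3% of WT CD8 T-like cells, and Tcf7 or Slamf6 positive cells 17.4% and 13.1%. Havcr2 or Entpd1 positive cells were the most numerous in both, with 61.0% and 63.1%.
Tnfrsf9 was lower in the knockout library in each of the 5 states. It was at 151 and 273 CPM in Pdcd1 negative cells, 159 and 227 CPM in other Pdcd1 positive cells, and 240 and 406 CPM in Tcf7 or Slamf6 positive cells. It was at 257 and 480 CPM in Havcr2 or Entpd1 positive cells, a ratio of 0.536 (0.522 to 0.550), and at its highest in cells high in Gzmc to Gzmf, at 572 and 830 CPM, a ratio of 0.688 (0.661 to 0.717). Its level thus differed between states in both libraries. The lowest value was in Pdcd1 negative cells in the knockout library and in other Pdcd1 positive cells in the WT library. The knockout value stayed below the WT value within each state. The states were set on UMIs of cells that were not thinned, and WT cells were deeper. The part of depth in the mix of states and in this order was not tested.
Tnfrsf4 ranged from 41.3 CPM (Pdcd1 negative) to 241 CPM (Gzmc to Gzmf high) in the knockout library and from 52.2 to 305 CPM over the same states in the WT library. Its ratio was 0.570 in Havcr2 or Entpd1 positive cells (0.545 to 0.596) and 0.793 in cells high in Gzmc to Gzmf (0.744 to 0.845). In Pdcd1 negative cells it was 0.792 with an interval that includes 1 (0.547 to 1.15). Tnfrsf18 had ratios of 0.633 in Havcr2 or Entpd1 positive cells (0.606 to 0.662), 0.670 in Tcf7 or Slamf6 positive cells (0.621 to 0.723) and 0.867 in cells high in Gzmc to Gzmf (0.809 to 0.929). Its intervals include 1 in Pdcd1 negative cells (0.687 to 1.22) and in other Pdcd1 positive cells (0.575 to 1.12). Tnfrsf18 was highest in cells high in Gzmc to Gzmf as well, at 216 and 249 CPM, against 74.0 and 81.1 CPM in Pdcd1 negative cells. The difference in ratio between states was not tested.
Cd27 was not past the fold in any state, at ratios from 0.782 in cells high in Gzmc to Gzmf (0.708 to 0.864) to 1.01 in other Pdcd1 positive cells (0.785 to 1.32).
With each of the 5 states weighted alike in both libraries, the ratio was 0.622 for Tnfrsf9, 0.689 for Tnfrsf4 and 0.770 for Tnfrsf18, so the last 2 were no longer past the fold. Tnfsf4 was then at a ratio of 0.541. Cells positive for the cycling markers Mki67 or Top2a made up 56.2% and 55.7% of CD8 T-like cells. Tnfrsf9 was at 269 and 470 CPM in cycling cells and at 321 and 634 CPM in the others. Tnfsf4 was at 7.43 and 14.7 CPM in cycling cells (ratio 0.507, 0.439 to 0.586) and at 6.55 and 7.21 CPM in the others (ratio 0.909, 0.685 to 1.21). The interval of the cells that were not cycling includes 1, and the difference between cycling and other cells was not tested.

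**Figure D1:**
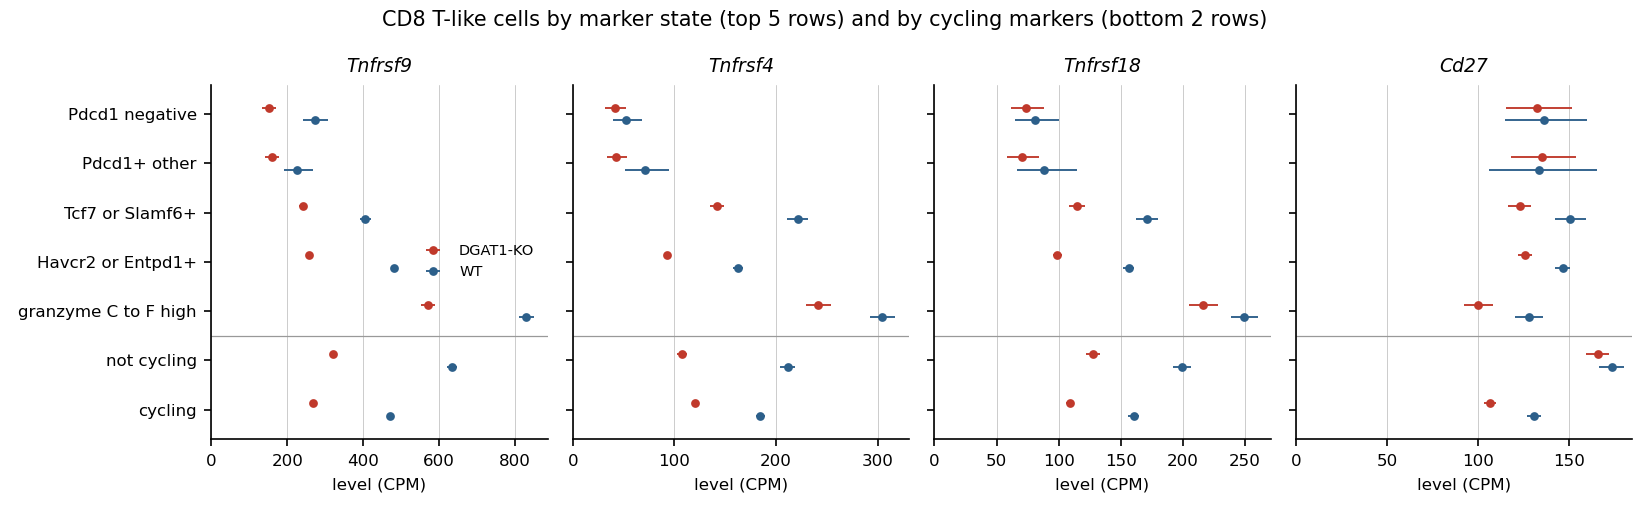
Level of Tnfrsf9, Tnfrsf4, Tnfrsf18 and Cd27 (CPM) in 5 marker states of CD8 T-like cells and in cycling and other cells, with the knockout library in red, the WT library in blue and bars for exact 95% counting intervals. Tnfrsf9 is lower in the knockout library in every state, while Cd27 runs from 133 and 136 CPM in Pdcd1 negative cells to 100 and 128 CPM in cells high in Gzmc to Gzmf.

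Genes around the receptors in the same CD8 T-like cells were read from lists chosen with earlier results of these data known. Of 17 genes of TRAF and NF-kB signalling, 17 were measured and 0 were past the fold, with a median log2 ratio of 0.04. The values furthest apart were Nfkbia, the NF-kB inhibitor that NF-kB induces, at 189 and 271 CPM, Traf1, an adaptor of 4-1BB, at 93.4 and 126 CPM, and Nfkb1, a subunit of NF-kB, at 189 and 145 CPM. Of 12 survival and target genes 10 were measured, 3 were higher and 0 lower, and Bcl2, an inhibitor of cell death, led them at 164 and 92.1 CPM, a ratio of 1.78 (1.72 to 1.85). The other 2 were Ccl22 (0.910 and 0.386 CPM), a chemokine of mature DCs, and the growth factor Il2 (2.93 and 1.71 CPM), both at low levels.
Of 18 other TNF-family genes of lymphocytes 12 were measured and 3 were higher, 0 lower: Tnfsf8 (CD30 ligand) at 6.46 and 3.13 CPM, Tnfsf14 (LIGHT) at 2.77 and 1.40 CPM, and lymphotoxin alpha (Lta) at 8.56 and 5.12 CPM. Of the 6 CD28 family genes and ligands 6 were measured and 1 was lower. That was Ctla4, the inhibitory receptor for CD80 and CD86, at 132 and 283 CPM (ratio 0.466, 0.453 to 0.479), while Cd80 was at 60.3 and 72.7 CPM and Cd28 at 114 and 123 CPM. Of 12 T cell activation genes 2 were higher and 3 lower, with a median of -0.30: Nr4a2, a nuclear receptor induced by antigen, was at 132 and 232 CPM, Egr1 at 11.4 and 19.5 CPM and Il2ra, a chain of the interleukin-2 receptor, at 65.6 and 103 CPM. The activation list thus held genes past the fold on both sides, the higher ones being Egr2 (6.10 and 3.39 CPM) and Egr3 (5.55 and 3.29 CPM), which were named after their values were seen.

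Treg-like cells (gated on Foxp3, Ikzf2 and Il2ra) were few, 131 and 95 cells, and carried the highest levels of Tnfrsf9, Tnfrsf4, Tnfrsf18 and Cd27 of the classes compared. Of 5 genes measured there, 3 were lower and 1 higher, against 12% of all genes measured past the fold. Tnfrsf9 was at 480 CPM (455 to 506) and 759 CPM (718 to 801), a ratio of 0.633 (0.586 to 0.683), and Tnfrsf18 at 375 CPM (353 to 398) and 605 CPM (569 to 643), a ratio of 0.619 (0.568 to 0.675). Cd27 was at 144 CPM and 243 CPM, a ratio of 0.592 (0.516 to 0.681). Tnfrsf4 was at 743 CPM (711 to 775) and 949 CPM (903 to 996), a ratio of 0.783 that is not past the fold. The WT library was thus the higher one for all 4 receptors.
Thinned Treg-like cells with a UMI made up 67.7% (58.8 to 75.7) and 78.7% (69.1 to 86.5) for Tnfrsf9 and 40.2% (31.6 to 49.2) and 60.6% (50 to 70.6) for Cd27, at median depths of 13139 and 13363 UMIs. The intervals overlap for Tnfrsf9 and not for Cd27, and in macrophage-like cells the shares were 3.62% and 2.73% for Tnfrsf9 and 1.34% and 0.923% for Cd27. Tnfsf9 was higher, at 17.6 CPM from 50 UMIs and 7.58 CPM from 13 UMIs, but 10 cells held 68.0% and 100% of those UMIs. Restricted to barcodes above the UMI threshold of the cell calling, the log2 ratio of Tnfrsf9 was -0.24 in place of -0.66. Summed Treg markers were at 3900 and 4433 CPM in these cells, and their part in the receptor values was not tested. Of the 17 signalling genes 17 were measured and 0 were past the fold, and Traf1 was at 167 and 248 CPM.

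NK-like cells, cytotoxic lymphocytes that carry 4-1BB and GITR after activation, had 4 genes measured, with 0 higher and 1 lower against 9.01% of all genes measured. The lower one was Tnfrsf18, at 86.6 CPM (78.6 to 95.1) and 132 CPM (119 to 147), a ratio of 0.654 (0.567 to 0.754). Without the 10 cells of each library richest in it, the log2 ratio was -0.40, below the fold. Tnfrsf9 was at 222 and 288 CPM (ratio 0.772, 0.704 to 0.847), and 10 cells held 22.9% and 41.8% of its UMIs. Without the top 10 cells of each library it was at 182 and 181 CPM. Cd27, a marker of less mature NK cells, was at 76.1 and 67.5 CPM (ratio 1.13, 0.943 to 1.35). Cd40 was at 13.3 and 15.3 CPM, and the 10 richest cells held 78.8% and 90.5% of that.
CD4 T-like cells (174 and 58) and T-like cells that no gate of a named T cell class took (other T-like, 349 and 228) showed a different order. In CD4 T-like cells Tnfrsf9 was at 160 CPM (144 to 176) and 161 CPM (127 to 201), Tnfrsf4 at 437 and 351 CPM (ratio 1.25, 1.06 to 1.47) and Tnfrsf18 at 282 and 328 CPM (ratio 0.859, 0.722 to 1.03). None of the 3 was past the fold. Of 7 genes measured there, 1 was higher (Tnfsf9, 29.6 and 12.5 CPM, from 73 and 6 UMIs) and 1 lower (Cd27, 68.2 and 107 CPM, ratio 0.639, 0.465 to 0.893). Cd70 was at 60.1 CPM from 148 UMIs and 43.9 CPM from 21 UMIs (ratio 1.37, 0.863 to 2.28). The share of all genes past the fold was 27.6%, which is larger than in any other class, so these 2 of 7 lie near the background.
In other T-like cells, 2 of 7 genes measured were higher and 1 lower, against 8.12% of all genes measured. Tnfrsf4 was at 220 CPM (208 to 233) and 125 CPM (111 to 140), a ratio of 1.76 (1.55 to 2.00), which is the opposite side from CD8 T-like cells. With clusters in place of gates its log2 ratio in other T-like cells was -1.41, at 3.96 and 10.5 CPM, which is the other direction. Cd70 was at 28.8 CPM from 157 UMIs and 10.7 CPM from 26 UMIs, with 79.0% and 76.9% of those UMIs in 10 cells. Tnfrsf9 was lower, at 218 and 330 CPM (ratio 0.660, 0.603 to 0.723), and with clusters its log2 ratio was 0.24. The values not past the fold were Tnfrsf18 at 174 and 170 CPM, Cd27 at 107 and 143 CPM, Tnfsf9 at 13.2 and 12.7 CPM and Cd40lg at 14.3 and 19.7 CPM. The makeup of this class differed as well: Cd4 was at 120 and 52.2 CPM and the summed Treg markers at 1133 and 1582 CPM. Their part in these values was not tested.

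**Figure D2:**
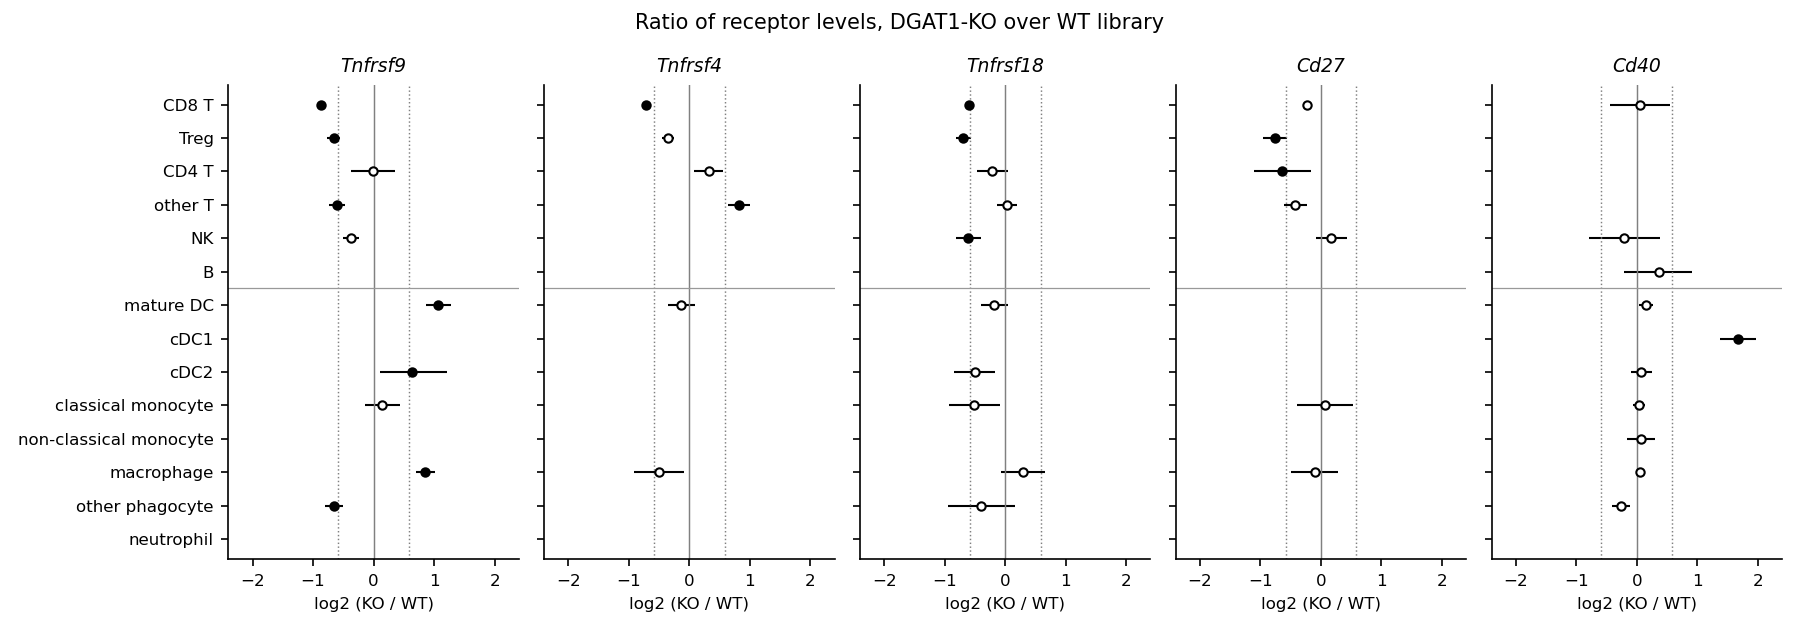
Log2 ratio of the knockout over the WT library for the 5 receptors by class, for values with at least 50 UMIs in a library, with bars for exact 95% counting intervals; filled points are past the 1.5-fold lines and open points are not. Tnfrsf9 lies at -0.87 in CD8 T-like and -0.66 in Treg-like cells and at 1.07 in mature DC-like cells, and Cd40 lies at 1.67 in cDC1-like cells and between -0.27 and 0.14 in the other myeloid classes.

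Mature DC-like cells were gated on Ccr7, Fscn1 and other genes of migratory DCs, which can display several of these ligands to T cells. In mature DC-like cells no ligand was past the fold, and 4-1BB was higher in the knockout library. Of 7 genes measured, 1 was higher and 0 lower, against 11.3% of all genes measured. That gene was Tnfrsf9, at 195 CPM from 913 UMIs (183 to 208) and 93.1 CPM from 257 UMIs (82.1 to 105), a ratio of 2.10 (1.82 to 2.42). The knockout library was the higher one here, while in CD8 T-like cells the WT library was.
In thinned mature DC-like cells a Tnfrsf9 UMI was found in 28.1% (23.1 to 33.6) and 24.3% (18.2 to 31.3), and at least 3 UMIs in 8.28% and 2.82%, at median depths of 13720.5 and 13419 UMIs. The intervals of the share of cells with the gene thus overlapped. The share with at least 3 UMIs was larger in the knockout library, but it has no interval here and rests on 302 and 177 thinned cells. The 10 richest cells held 30.3% and 35.0% of the UMIs, and without the top 10 cells of each library the levels were 143 and 66.3 CPM. Free RNA gave an estimated 4.23% and 10.8% of the UMIs. The 5 T cell markers summed to 28.6 and 30.4 CPM in this class, against 3638 and 3960 CPM in CD8 T-like cells, with 0 of the 5 at 0 in either library. The 5 NK markers summed to 7.48 and 6.16 CPM, and in the WT library 3 of them were at 0. The part of such cells in the Tnfrsf9 value was not tested.
Among the ligands, Tnfsf9 was at 73.5 CPM (66.0 to 81.7) and 56.9 CPM (48.3 to 66.5), a ratio of 1.29 (1.07 to 1.57). Tnfsf4 was at 41.0 CPM (35.4 to 47.3) and 41.0 CPM (33.8 to 49.2), a ratio of 1.0 (0.790 to 1.28). Cd70 was at 50.7 CPM (44.4 to 57.5) and 56.5 CPM (48.0 to 66.1), a ratio of 0.896 (0.729 to 1.10). The intervals of Tnfsf4 and Cd70 include 1 and stop short of 1.5-fold either way, but these levels rested in large part on few cells. Without the 10 richest cells of each library, Tnfsf4 was at 17.9 and 24.2 CPM (log2 ratio -0.44). Cd70 was then at 27.6 and 22.5 CPM (0.30), the other direction, and Tnfsf9 at 41.0 and 32.4 CPM (0.34). The receptors Tnfrsf4 (91.9 and 101 CPM, ratio 0.912, 0.783 to 1.06) and Tnfrsf18 (84.9 and 96.0 CPM, ratio 0.884, 0.755 to 1.04) were present in this class too, with free RNA estimated at 5.25% to 7.0% of their UMIs. A UMI of Tnfrsf4 was found in 21.2% and 19.8% of thinned mature DC-like cells, against 1.01% and 0.997% of macrophage-like cells.
Cd40, through which helper T cells license DCs, was highest in this class, at 376 CPM (359 to 394) and 340 CPM (319 to 363), a ratio of 1.11 (1.02 to 1.2). Of the 17 signalling genes 17 were measured there and 0 were past the fold, with Nfkb1 at 1327 and 978 CPM, Traf3 at 450 and 345 CPM and Traf1 at 872 and 977 CPM. Of the survival and target genes 10 were measured, 5 higher and 1 lower: the chemokine Ccl17 was at 675 and 158 CPM, Bcl2 at 26.5 and 9.06 CPM and the survival gene Bcl2l1 at 156 and 78.6 CPM. The CD28 ligands Cd80 and Cd86 were at 789 and 601 CPM and at 1024 and 828 CPM, and 0 of 3 genes measured of that family were past the fold.

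In conventional type 1 DC-like (cDC1-like) cells, which present tumour antigen to CD8 T cells, Cd40 was higher in the knockout library. It was the 1 gene of the 10 that could be measured there, and 12.7% of all genes measured in that class were past the fold. Its level was 124 CPM from 394 UMIs (112 to 137) and 39.0 CPM from 132 UMIs (32.6 to 46.2), a ratio of 3.18 (2.61 to 3.91), in 155 and 146 cells. In thinned cells a Cd40 UMI was found in 21.6% (15.3 to 28.9) and 11.3% (6.63 to 17.8), at median depths of 17360 and 20815 UMIs, and these intervals overlap. In CD8 T-like cells, which should lack Cd40, the shares were 0.725% and 0.732%. The 10 cells richest in Cd40 held 43.4% and 55.3% of the UMIs, and without them the log2 ratio was 2.03, so the order was the same without them.
The gene lists were read in the same cells. Of the 17 signalling genes, 17 were measured and 9 were higher and 0 lower, with a median log2 ratio of 0.67 against 0.08 over all genes. Relb, an NF-kB subunit of the pathway that CD40 turns on, was at 75.0 and 30.7 CPM, Traf1 at 177 and 83.0 CPM and Birc3 at 206 and 111 CPM. Of 9 survival and target genes measured 8 were higher, among them Ccl22 (26.1 and 4.72 CPM) and Ccl17 (67.4 and 19.8 CPM). Of the CD28 family 3 genes were measured and 1 was higher: Cd80 was at 78.7 and 24.2 CPM, whereas Cd86 was at 299 and 282 CPM and Icosl at 41.9 and 29.2 CPM. Of 7 T cell activation genes measured 2 were higher and 2 lower, with Nr4a3 at 36.9 and 6.20 CPM and Egr3 at 21.7 and 36.3 CPM. Tnf, the founding cytokine of the family, was at 110 and 28.6 CPM. The 7 markers of mature DCs, Ccl22 among them, summed to 48.2 and 25.7 CPM in this class, with 0 of them at 0, against 5455 and 4781 CPM in mature DC-like cells. Their part in these values was not tested.

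In the other myeloid classes where Cd40 could be measured, it was not past the fold. Cd40 was at 115 CPM (108 to 122) and 109 CPM (98.4 to 121) in cDC2-like cells, and at 114 CPM (109 to 119) and 112 CPM (106 to 118) in classical monocyte-like cells. It was at 130 and 124 CPM in non-classical monocyte-like cells, 84.0 and 81.0 CPM in macrophage-like cells (ratio 1.04, 0.989 to 1.09), and 80.8 and 97.1 CPM in other phagocyte-like cells (ratio 0.832, 0.751 to 0.922). B-like cells, on which CD40 drives germinal centre responses, were at 103 CPM from 40 UMIs and 79.8 CPM from 91 UMIs (ratio 1.29, 0.867 to 1.89). Neutrophil-like cells had 46 and 7 UMIs of Cd40, under the minimum of 50.
Tnfsf9 was the ligand of the phagocytes. It was at 26.9 CPM (25.1 to 28.8) and 21.0 CPM (19.9 to 22.1) in macrophage-like cells, a ratio of 1.28 (1.17 to 1.40), and at 23.9 and 27.3 CPM in classical monocyte-like cells. It was at 37.3 and 42.8 CPM in cDC2-like cells and at 40.9 and 37.9 CPM in other phagocyte-like cells. None of these was past the fold, and the direction was not the same in all of them.
Tnfrsf9 was past the fold and higher in macrophage-like cells, at 21.3 and 11.8 CPM, the 1 of 6 genes measured against 11.1% of all genes. Free RNA was estimated at 75.0% and 92.9% of those UMIs, so by that estimate most of this level was free RNA. With free RNA subtracted, Tnfrsf9 was still past the fold and higher in macrophage-like and cDC2-like cells. In cDC2-like cells it was also the 1 gene of 4 measured past the fold (15.9 and 10.2 CPM, ratio 1.56, 1.07 to 2.32, against 10.3% of all genes), with free RNA at 48.5% and 74.4%, and it was on the other side, at a log2 ratio of -0.31, in thinned cells. In other phagocyte-like cells it was lower, at 73.0 and 115 CPM (ratio 0.634, 0.574 to 0.701), the 1 of 4 genes measured against 8.92% of all genes, and 10 cells held 38.2% and 53.1% of the UMIs. Without those cells it was at 46.2 and 55.9 CPM, a log2 ratio of -0.28 that is not past the fold, and with clusters in place of gates the log2 ratio was 0.24. In classical monocyte-like cells 0 of 5 genes measured were past the fold, against 9.37% of all genes. There Tnfrsf9 was at 15.2 and 13.7 CPM, Tnfrsf18 at 5.47 and 7.78 CPM and Cd27 at 5.68 and 5.45 CPM, with free RNA estimated at 70.1% or more of the UMIs of each. Tnfrsf18 in other phagocyte-like cells was at 5.89 and 7.76 CPM. Tnfrsf18 was at 23.2 and 32.9 CPM in cDC2-like cells (ratio 0.705, 0.559 to 0.894), with free RNA at 17.9% and 12.7%. In macrophage-like cells Tnfrsf4, Tnfrsf18 and Cd27 stood between 2.25 and 3.36 CPM, where free RNA alone would give more than was counted.
Among the CD28 family genes of the macrophage-like cells, 6 were measured and 4 were higher and 0 lower, with the ligands Cd80 at 44.3 and 17.2 CPM, Cd86 at 298 and 180 CPM and Icosl at 16.1 and 9.87 CPM. Markers of other classes differed beside them: in these cells the 5 cDC2 markers summed to 160 and 75.1 CPM, the 7 mature DC markers to 50.4 and 27.4 CPM, the 6 classical monocyte markers to 767 and 502 CPM and the 6 macrophage markers to 8364 and 10996 CPM. Their part in the result was not tested. Of the 17 signalling genes 17 were measured and 0 were past the fold.

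**Figure D3:**
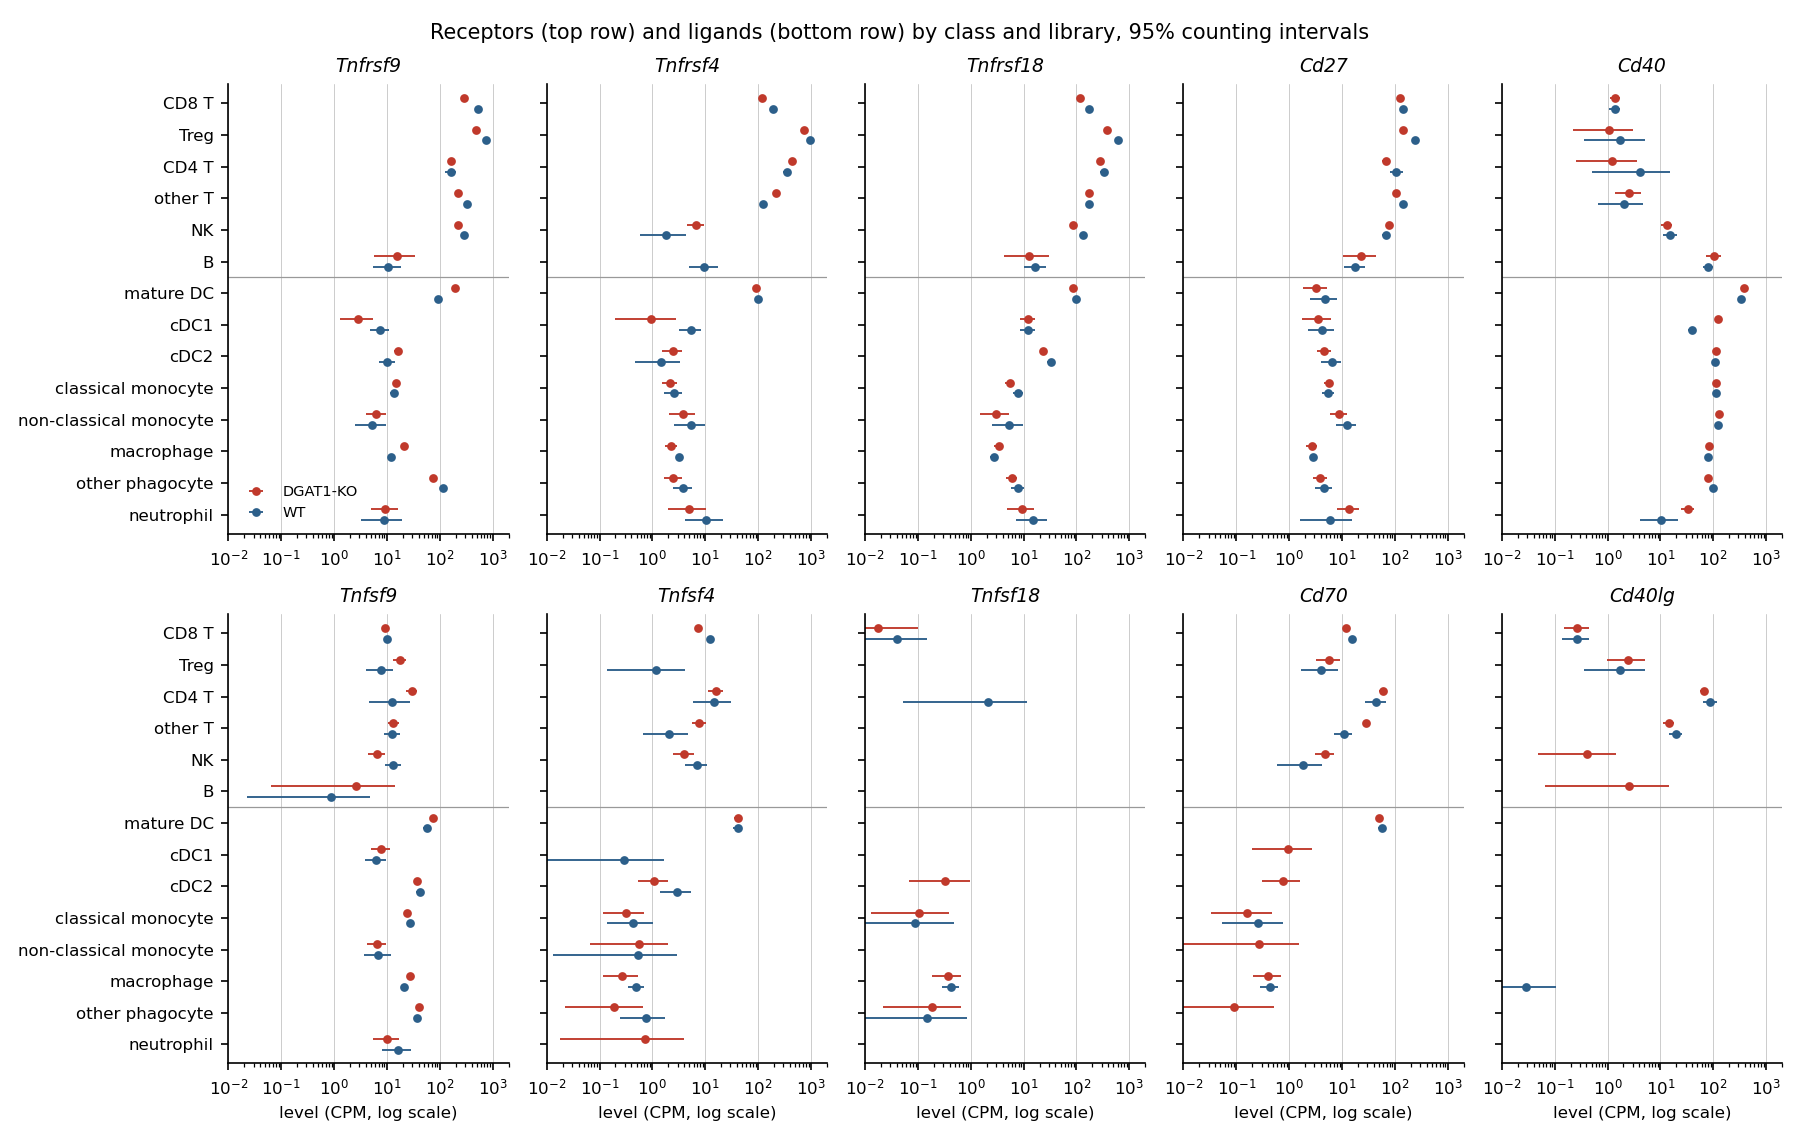
Level of each of the 10 genes (CPM, log axis) by class, with the knockout library in red, the WT library in blue and bars for exact 95% counting intervals; a library with 0 UMIs has no point, and a line separates lymphoid from myeloid classes. Tnfrsf9, Tnfrsf4 and Tnfrsf18 are highest in Treg-like cells (743 and 949 CPM for Tnfrsf4), and Cd40, Tnfsf4 and Tnfsf9 are highest in mature DC-like cells.

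Because the classes differ in number as well as in level, the source of each RNA in the sorted cells differed between the libraries. Over all CD45+ cells, Tnfrsf9 was at 144 CPM (142 to 146) and 193 CPM (191 to 195), while Tnfrsf4 was at 72.9 and 76.4 CPM and Tnfrsf18 at 66.4 and 70.5 CPM. CD8 T-like cells held 68.4% and 82.1% of the Tnfrsf9 UMIs. They held 55.8% and 76.9% of the Tnfrsf4 UMIs, and 59.8% and 74.4% of the Tnfrsf18 UMIs. Those cells made up 21.8% and 20.8% of the CD45+ cells, so the receptor RNA of the knockout library came to a larger extent from other classes. Treg-like cells, 1.2% and 1.09% of the CD45+ cells, held 18.0% and 13.2% of the Tnfrsf4 UMIs.
The ligand RNA was spread over more classes. Of the Tnfsf4 UMIs, CD8 T-like cells held 54.8% and 74.7%, and of the Cd70 UMIs 52.4% and 75.1%. Mature DC-like cells held 26.1% and 13.8% of the Tnfsf4 UMIs while making up 2.80% and 2.05% of the CD45+ cells. Macrophage-like cells held 24.1% and 47.4% of the Tnfsf9 UMIs and 25.1% and 57.2% of the Cd40 UMIs, and made up 13.8% and 31.4% of CD45+ cells. Within the macrophage-like class the levels of both genes were not past the fold.
Cd40lg, the signal of helper T cells, was counted 284 times in the knockout library and 116 times in the WT library, or 1.77 CPM (1.57 to 1.98) and 0.719 CPM (0.594 to 0.863) of all CD45+ cells, a ratio of 2.46 (1.97 to 3.07). CD4 T-like cells held 57% and 36.2% of these UMIs, and other T-like cells 27.5% and 41.4%. Within CD4 T-like cells the level was not higher, at 65.7 CPM (56.0 to 76.7) and 87.8 CPM (63.3 to 119), a ratio of 0.749 (0.530 to 1.08). CD4 T-like cells numbered 174 and 58, which is 1.60% and 0.666% of the CD45+ cells. The part of their number in the Cd40lg total was not tested. In thinned CD4 T-like cells a UMI was found in 13.5% (8.77 to 19.6) and 20% (10.4 to 33.0), at median depths of 10071.5 and 7570.5 UMIs. In macrophage-like cells, a class that should lack it, 0 of 1492 and 0 of 2709 thinned cells had a UMI, where 3 cells would be 0.201% and 0.111%, and without thinning the class held 0 and 2 Cd40lg UMIs.
Tnfsf18, the GITR ligand, was hardly counted: 21 and 35 UMIs among all CD45+ cells, 0.131 CPM (0.0808 to 0.200) and 0.217 CPM (0.151 to 0.302). Macrophage-like cells held 11 of the 21 and 29 of the 35. In melanoma-like cells, the tumour cells left by the sort, Tnfsf18 had 0 UMIs in both libraries. In those cells Tnfsf9 was at 17.7 and 17.1 CPM, Tnfrsf9 at 8.99 and 8.74 CPM, Cd27 at 3.09 and 4.11 CPM and Cd40 at 2.41 and 2.21 CPM. Tnfrsf4 had 8 and 90 UMIs there (1.07 and 3.06 CPM) and Tnfrsf18 had 6 and 77 (0.805 and 2.62 CPM). Both were past the fold and lower, the 2 of 6 genes measured there. The share of all genes past the fold was not computed for this class. The 5 T cell markers summed to 12.1 and 50.5 CPM in melanoma-like cells, and their part in these values was not tested.

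**Figure D4:**
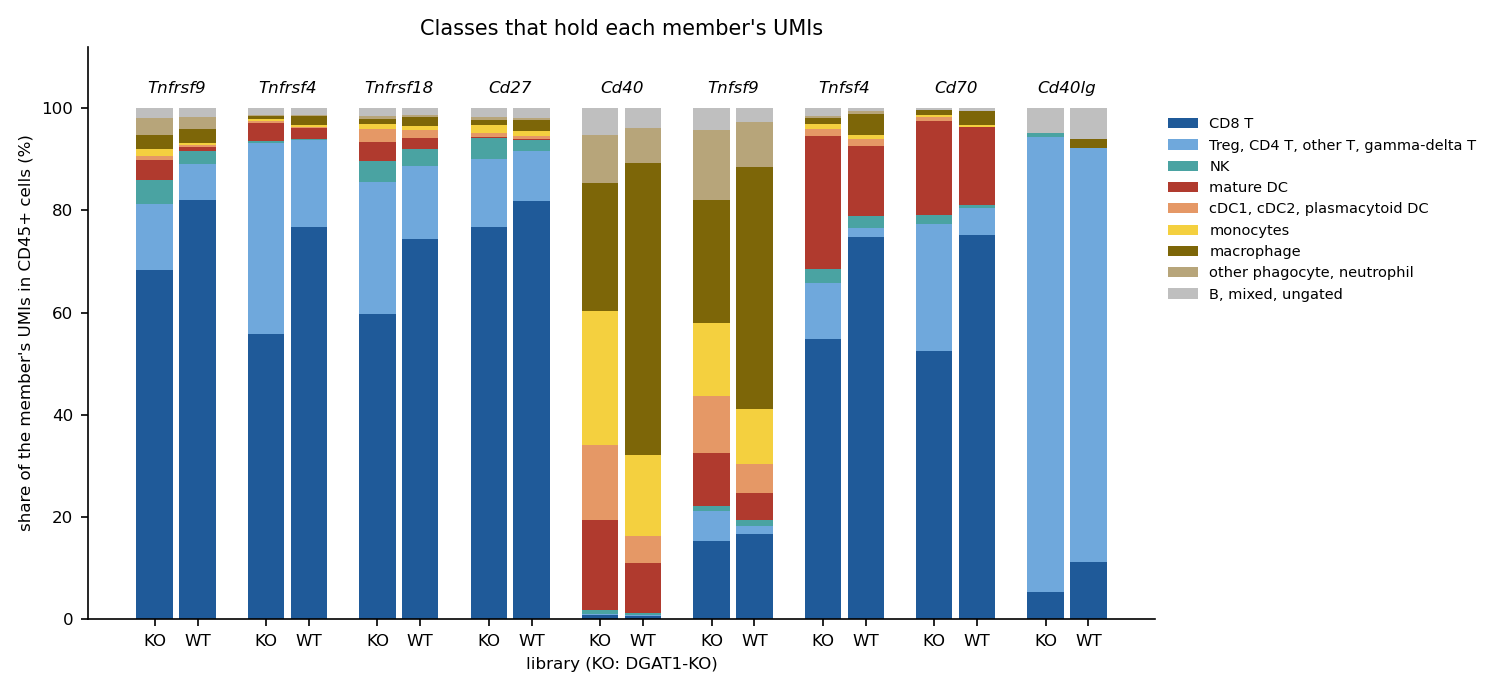
Share of the UMIs of each gene (percent, stacked bars) held by each class among the CD45+ cells of the knockout and WT libraries; Tnfsf18 is not drawn because it had 21 and 35 UMIs. The CD8 T-like part of Tnfrsf9 is 68.4% and 82.1%, and the macrophage-like part of Cd40 is 25.1% and 57.2%.

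Genes whose levels ran most like those of a member were ranked by Pearson's r of log2(CPM + 1) over 24 class and library values, which share libraries and depth. For Tnfrsf4 they were Slamf1 (0.98), Atcay (0.95) and Gpm6b (0.92). For Tnfrsf18 Rhof (0.95) and Ppp1r16b (0.93) were among them, and for Tnfrsf9 they were Sfn (0.90), Ccl5 (0.89) and Gem (0.89). Cd27 ran with Sh2d2a, Lck and Cd2 (0.98 each), and Cd70 with Il2ra (0.95), Ikzf4 (0.94) and Cdkn2b (0.94). Cd40 ran with Mvp (0.99), Rasa4 (0.97) and F11r (0.96). Tnfsf9 ran with Flrt3 (0.89), Carmil1 (0.88) and Car13 (0.83), and Tnfsf4 with Rnf40 (0.93), Birc2 (0.91) and Cd70 (0.91).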

How the data were processed

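Droplet single-cell RNA libraries (10x Genomics), 1 per group, were used. For each library the authors deposited the raw UMI counts of 32285 genes in every barcode, without normalization. The program was Cell Ranger 7.2.0, per the file headers. The build was mm10, per the submitters' processing notes. The sources used here do not name the annotation. Positions of genes are from GENCODE M21 and promoter sequences from RefSeq GRCm38.p6.

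A barcode was a cell if its UMIs passed 1 in 10 of the 99th percentile of the leading barcodes (9271 UMIs for knockout, 16616 for WT). Smaller barcodes with at least 500 UMIs were added when they differed from free RNA in 10000 simulations at a false discovery rate of 0.01. Cells with fewer than 250 genes or over 10% mitochondrial UMIs were left out. Scrublet (scanpy 1.11.5) marked 3.02% and 1.80% as doublets, while a rate of 0.8% per 1000 cells would give 9.06% and 7.40%. Marked cells were removed, and doublets may remain. Classes were gates on marker genes per cell, with minimums adjusted after marker levels were seen. Classes of 100 or more cells in both libraries were compared, and B-like, CD4 T-like and Treg-like cells with at least 50 were added after the data were seen.

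Free RNA was estimated from melanoma genes in other cells and the profile of barcodes of at most 100 UMIs, and came to 7.18% and 6.89% of UMIs in CD45+ cells. It was left in the counts. CPM intervals are exact Poisson, shares exact binomial (Clopper-Pearson) and ratios exact conditional, all at 95%. With 1 library per group no test or p-value was computed. A value of 0 was set to a floor of 3 UMIs for counting genes past the fold. Cell calling was tested on thinned barcodes and simulated free RNA, and the ratio intervals on simulated counts. The rule for names took the 10 genes in each class and, of each gene list, the 3 genes whose ratio intervals lie furthest from 1. Not every list gene so named is printed, and those printed were picked with the values known. The genes and lists were chosen with earlier results of these data known. Alternatives are listed in the closing section. One gene of like pattern is not reported here.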

Additional observations from a re-analysis of the deposited data

Results flagged for a closer look

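For 2 genes the knockout and WT libraries differed past the fold one way in some classes and the other way in others, with counting intervals that leave out 1. For Tnfrsf9 the log2 ratio of knockout over WT was -0.87 in CD8 T-like, -0.66 in Treg-like, -0.60 in other T-like and -0.66 in other phagocyte-like cells. It was 1.07 in mature DC-like, 0.86 in macrophage-like and 0.64 in cDC2-like cells. For Tnfrsf4 it was -0.72 in CD8 T-like and 0.82 in other T-like cells. Some of these directions turned: with clusters in place of gates the log2 ratio was -1.41 for Tnfrsf4 in other T-like cells and 0.24 for Tnfrsf9 in other T-like and other phagocyte-like cells, and in thinned cells it was -0.31 for Tnfrsf9 in cDC2-like cells. With 1 library per group the difference between classes was not tested. Free RNA was estimated at 75.0% and 92.9% of the Tnfrsf9 UMIs in macrophage-like cells and at 48.5% and 74.4% in cDC2-like cells, and at 4.23% and 10.8% in mature DC-like cells. With free RNA subtracted, each flagged log2 ratio kept its direction and stayed past the fold.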

How the results depend on the processing

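Of the 10 genes, the numbers past the fold either way were 4 in CD8 T-like and Treg-like cells, 3 in other T-like, 2 in CD4 T-like, 1 in NK-like, cDC1-like, cDC2-like, macrophage-like, mature DC-like and other phagocyte-like cells, and 0 in classical monocyte-like cells. Melanoma-like cells, where 2 were lower, were left out of the alternatives and of the values counted below. Where an alternative moved a number by over 1.5 times, the new numbers were as follows. With at least 1 UMI in each library they were 5 in NK, 3 in cDC1, 3 in cDC2, 2 in classical monocyte, 2 in macrophage and 3 in other phagocyte-like cells. With at least 200 UMIs they were 0 in cDC2 and CD4 T-like cells. With at most 5% mitochondrial UMIs they were 0 in NK, 2 in macrophage and 1 in CD4 T-like cells. In thinned cells they were 0 in cDC2, 1 in classical monocyte, 0 in macrophage and 1 in Treg-like cells. With clusters in place of gates they were 0 in NK, cDC2 and CD4 T-like cells, and with doublets kept 0 in macrophage-like cells. At a fold of 2 they were 0 in CD8 T, NK, cDC2, macrophage and other phagocyte-like cells and 1 in other T, CD4 T and Treg-like cells. With free RNA subtracted they were 2 in cDC2 and 3 in classical monocyte-like cells. With each cell weighing alike they were 0 in macrophage and other phagocyte-like cells and 1 in CD4 T-like cells. With barcodes above the UMI threshold only, they were 2 in classical monocyte, 2 in macrophage, 5 in CD4 T and 1 in Treg-like cells. With stricter gates they were 0 in cDC2 and other phagocyte-like cells and 1 in classical monocyte-like cells. For 2 alternatives chosen after seeing the data, non-cycling cells gave 2 in other phagocyte and 1 in Treg-like cells, and leaving out the 10 richest cells gave 0 in cDC2 and other phagocyte-like cells and 4 in CD4 T-like cells.

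Over 13 alternatives, the log2 ratios in CD8 T-like cells ran from -0.98 to -0.87 for Tnfrsf9, -0.98 to -0.68 for Tnfrsf4, -0.71 to -0.56 for Tnfrsf18 and -0.97 to -0.14 for Tnfsf4, the last value being that of non-cycling cells. With each of the 5 states weighted alike, which is not among these 13, they were -0.68, -0.54, -0.38 and -0.89. Tnfrsf4 and Tnfrsf18 were then not past the fold. Over the 13, the log2 ratios of Tnfrsf9 in mature DC-like cells ran from 0.66 to 1.15 and those of Cd40 in cDC1-like cells from 1.17 to 2.03. The direction turned for 5 of the 19 values past the fold: in thinned cells, Tnfrsf9 in cDC2-like cells (-0.31) and Cd27 in CD4 T-like cells (0.19); with clusters in place of gates, Tnfrsf9 in other T-like (0.24) and other phagocyte-like cells (0.24) and Tnfrsf4 in other T-like cells (-1.41). The cause was not tested. The minimum of 1000 UMIs, the subtraction of free RNA and the scale without mitochondrial, ribosomal protein and haemoglobin genes kept all 19 past the fold. The scale by the median ratio of all genes kept 18. Fewer were kept in thinned cells (9 of the 16 with a value) and with clusters in place of gates (10 of 16). Barcodes above the UMI threshold kept 12 of 17, as did leaving out the 10 richest cells. Non-cycling cells kept 13 of 19, and each cell weighing alike kept 14 of 19. No paired analysis was possible because each group has 1 library. Counts of Tnfsf18 in any class, and of Cd40lg outside T-like cells, were too few for a ratio.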
